A study of Mus musculus with 8 samples.

Results

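The T-cell receptors (TCRs) of aged, injured brains were compared between isotype control and anti-CD49d antibody (aCD49d Ab) treatment, in the single-cell TCR libraries ATBI_Isotype and ATBI_aCD49d. Members were all cells and clonotypes of these 2 libraries, taken by their age and treatment labels, which came to 2147 of the 2986 cells and 999 of the 1693 clonotypes of the series. ATBI_Isotype held 1024 cells in 460 clonotypes and ATBI_aCD49d held 1123 cells in 539 clonotypes. A clonotype is a set of cells that Cell Ranger gave the same rearranged chains. Both libraries came from male C57BL/6 (B6) mice that received traumatic brain injury (TBI) by controlled cortical impact at 80 to 82 weeks of age. The mice were given 300 µg of either aCD49d Ab (clone PS/2, which blocks α4 integrin) or its isotype control (clone LTF-2), starting on the day of injury and repeated every 2 weeks, and CD45+ brain cells were sorted 2 months after TBI. Each library was 1 pool of the cells of 2 mice, so no group had a replicate and no difference could be tested. Young injured mice (YTBI_Isotype and YTBI_aCD49d, 13 to 15 weeks old at TBI and from another supplier) received the same antibodies, and their libraries serve below as a scale for the same measures. The cells' gene expression was not analysed here, so the CD4 or CD8 identity of the T cells was not checked. The question was whether the receptors differed between treatments in the gene segments they used, in how V and J segments were paired, and in the length and charge of the antigen-contacting loop.

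A TCR is a pair of an alpha and a beta chain. Each chain is assembled in the thymus by joining a V to a J segment (with a D segment between them in the beta chain), and bases are trimmed and added without a template at the join. The join encodes the complementarity-determining region 3 (CDR3), the loop that reaches over the peptide in the major histocompatibility complex. T cells that divide in a tissue pass on their rearrangement, so that counting each clonotype once describes which receptors were present, while counting each cell also weighs how large each clone was.

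The sequences of the largest clones are shown first because the counts by cell turn on them. CDR3 bases are given 5′ to 3′ in lower case, with capitals for the bases that matched neither the end of the germline V segment nor the start of the germline J segment. The clone with most cells in ATBI_Isotype held 109 cells, 10.6% of the library (exact 95% interval 8.82 to 12.7). It used TRBV19 with TRBJ1-4 and TRAV7N-6 with TRAJ9.
ATBI_Isotype clone 1 beta: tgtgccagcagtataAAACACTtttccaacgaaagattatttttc
ATBI_Isotype clone 1 alpha: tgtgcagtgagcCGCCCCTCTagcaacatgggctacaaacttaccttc
The next clones held 99 cells (9.67%) and 73 cells (7.13%), and both joined TRBV14 with TRBJ1-2 and carried one and the same alpha CDR3, from TRAV12-1 with TRAJ22.
ATBI_Isotype clone 2 beta: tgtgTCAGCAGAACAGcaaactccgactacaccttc
ATBI_Isotype clone 3 beta: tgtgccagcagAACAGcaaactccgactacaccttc
ATBI_Isotype clones 2 and 3 alpha: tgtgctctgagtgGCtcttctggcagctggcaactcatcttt
The beta CDR3 of these clones differed by 1 base, written C5T from clone 3 to clone 2 and counted from 1 at the 5′ end. Clone 3 held the germline base there, and because the match to the V segment ends at the first mismatch, clone 2 is printed with a longer run of capitals. In ATBI_aCD49d the clones with most cells held 101 cells (8.99%, 7.39 to 10.8), 78 cells (6.95%) and 69 cells (6.14%).
ATBI_aCD49d clone 1 beta: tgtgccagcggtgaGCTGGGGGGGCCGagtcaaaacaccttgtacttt
ATBI_aCD49d clone 1 alpha: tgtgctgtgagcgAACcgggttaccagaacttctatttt
ATBI_aCD49d clone 2 beta: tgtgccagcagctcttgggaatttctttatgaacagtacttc
ATBI_aCD49d clone 2 alpha: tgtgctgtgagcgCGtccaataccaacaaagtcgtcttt
ATBI_aCD49d clone 3 beta: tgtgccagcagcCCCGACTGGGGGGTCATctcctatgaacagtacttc
ATBI_aCD49d clone 3 alpha: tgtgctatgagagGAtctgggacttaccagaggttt
Clone 1 joined the V call TRBV12-2+TRBV13-2 with TRBJ2-4, clone 2 joined TRBV10 with TRBJ2-7, and clone 3 joined TRBV3 with TRBJ2-7. Clones 1 and 2 both used TRAV9-4 in the alpha chain, with TRAJ49 and TRAJ34, and clone 3 used TRAV16N with TRAJ13. The beta chain of clone 2 has no capitals because no TRBV10 chain could be matched to the germline V segment. The beta CDR3 of clone 3 was also that of the clonotype in rank 6, which held 20 cells and no alpha chain. The 5 largest clones together held 376 cells (36.7%) of ATBI_Isotype and 346 cells (30.8%) of ATBI_aCD49d.

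No receptor with both chains was found in both aged libraries, and no beta CDR3 nucleotide sequence was shared among the 455 distinct ones of ATBI_Isotype and the 530 of ATBI_aCD49d. Aged and young libraries shared none either, and the young libraries shared 1. At the amino acid level the aged libraries shared 1 beta CDR3, and the other combinations of libraries shared 1 to 5. Of the alpha CDR3 nucleotide sequences, 11 were found in both libraries, out of 340 and 455. Of these, 3 joined TRAV11 with TRAJ18, the invariant alpha rearrangement of natural killer T (NKT) cells. They are shown because they were the only alpha sequences of the 11 that more than 1 clonotype of a library carried.
shared TRAV11 with TRAJ18, sequence 1: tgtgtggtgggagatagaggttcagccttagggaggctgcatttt
shared TRAV11 with TRAJ18, sequence 2: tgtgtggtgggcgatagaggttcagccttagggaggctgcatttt
shared TRAV11 with TRAJ18, sequence 3: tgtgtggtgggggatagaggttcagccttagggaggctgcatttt
They differ only at position 12 and encode 1 amino acid sequence. In the order printed, they were found in 7, 9 and 5 clonotypes of ATBI_Isotype and in 10, 14 and 9 clonotypes of ATBI_aCD49d, counting every alpha chain of a clonotype. The aged libraries shared 1 cell barcode, and its chains differed between them.

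Recovery differed between the libraries, which held 10419 UMIs from 39562445 reads (ATBI_Isotype) and 18415 UMIs from 54235712 reads (ATBI_aCD49d) of T-cell receptor chains. A beta chain was recovered for 449 clonotypes (1004 cells) of ATBI_Isotype and 527 clonotypes (1102 cells) of ATBI_aCD49d, which was 97.6% and 97.8% of the clonotypes. An alpha chain was recovered for 343 clonotypes (74.6%) and 692 cells (67.6%) of ATBI_Isotype, against 466 clonotypes (86.5%) and 937 cells (83.4%) of ATBI_aCD49d. The median number of unique molecular identifiers (UMIs, which count captured mRNA molecules) behind a beta chain was 7 and 10, and behind an alpha chain 3 and 4. The part of this difference in the alpha chain results was not tested. Over 1 beta chain was listed for 12 and 22 cells. Every beta chain with a constant gene call used the constant gene of the cluster its J segment lies in (1010 of 1010 and 1122 of 1122 chains). All intervals printed below are exact 95% intervals and cover counting error only, not the difference between mice. By cell they take each cell as an independent draw, but the cells of a clone share their receptor, so these intervals are too narrow. For segments, a difference was counted when the share in one library was at least 1.5 times the share in the other. This was asked of segments that reached 10 clonotypes in one aged library or both.

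Counted by clonotype, the beta V segments were used in close to the same shares, with a small number of exceptions. The Morisita index, which is near 1 when libraries draw from the same shares and near 0 when they use different segments, was 0.99 between the aged libraries and 0.96 between the young ones. The call TRBV12-2+TRBV13-2 was the most frequent in both, with 48 clonotypes (10.7%) in ATBI_Isotype and 61 (11.6%) in ATBI_aCD49d. This joint name of neighbouring segments is given as deposited. TRBV13-3 (38 clonotypes against 40), TRBV13-1 (34 against 33), TRBV3 (32 against 45) and TRBV1 (29 against 46) followed, and in each the interval of the difference included 0. The TRBV13 family, known as Vβ8, was counted with the joint call. It took 29.4% of the clonotypes of ATBI_Isotype and 28.7% of ATBI_aCD49d, and 16.6% against 29.1% of the cells. The TRBV12 family (Vβ5), without the joint call, took 8.91% and 8.54% of the clonotypes, and 5.68% against 13.5% of the cells.

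Of 20 TRBV calls compared, 4 (20.0%) passed 1.5 fold. TRBV31 (Vβ14) was found in 26 clonotypes (5.79%, 3.82 to 8.37) of ATBI_Isotype and 10 (1.90%, 0.914 to 3.46) of ATBI_aCD49d, a difference of 3.89 percentage points (1.37 to 6.65). TRBV31 lies beyond the J and constant segments on the opposite strand (chromosome 6, 41557691 to 41558452, GRCm38) and joins by inversion. The young libraries had the opposite order, with 1.82% under isotype and 6.62% under aCD49d Ab. TRBV26 (chromosome 6, 41227505 to 41227993) was found in 20 (4.45%) against 8 clonotypes (1.52%), a difference of 2.94 points (0.692 to 5.43), and the young values were 3.64% and 2.65%. Higher under aCD49d Ab were TRBV29 (chromosome 6, 41271394 to 41271881), with 11 (2.45%) against 24 clonotypes (4.55%), and TRBV2 (chromosome 6, 41047340 to 41047995), with 9 (2.004%) against 19 (3.61%). The intervals of these last differences included 0. Over single-cell clonotypes the interval for TRBV26 included 0 as well (2.29 points, -0.097 to 4.98). Every TRBV29 clonotype is among those to which Cell Ranger gave invariant NKT or MAIT evidence, so that leaving these out left none to compare. That evidence was given to 162 clonotypes of ATBI_Isotype and 224 of ATBI_aCD49d, while TRAV11 with TRAJ18 was found in 20 and 38. It was thus not limited to clonotypes with the invariant alpha chain, and whether the others are NKT or MAIT cells was not checked. In all 4 the share of cells differed in the same direction as the share of clonotypes.

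**Figure D1:**
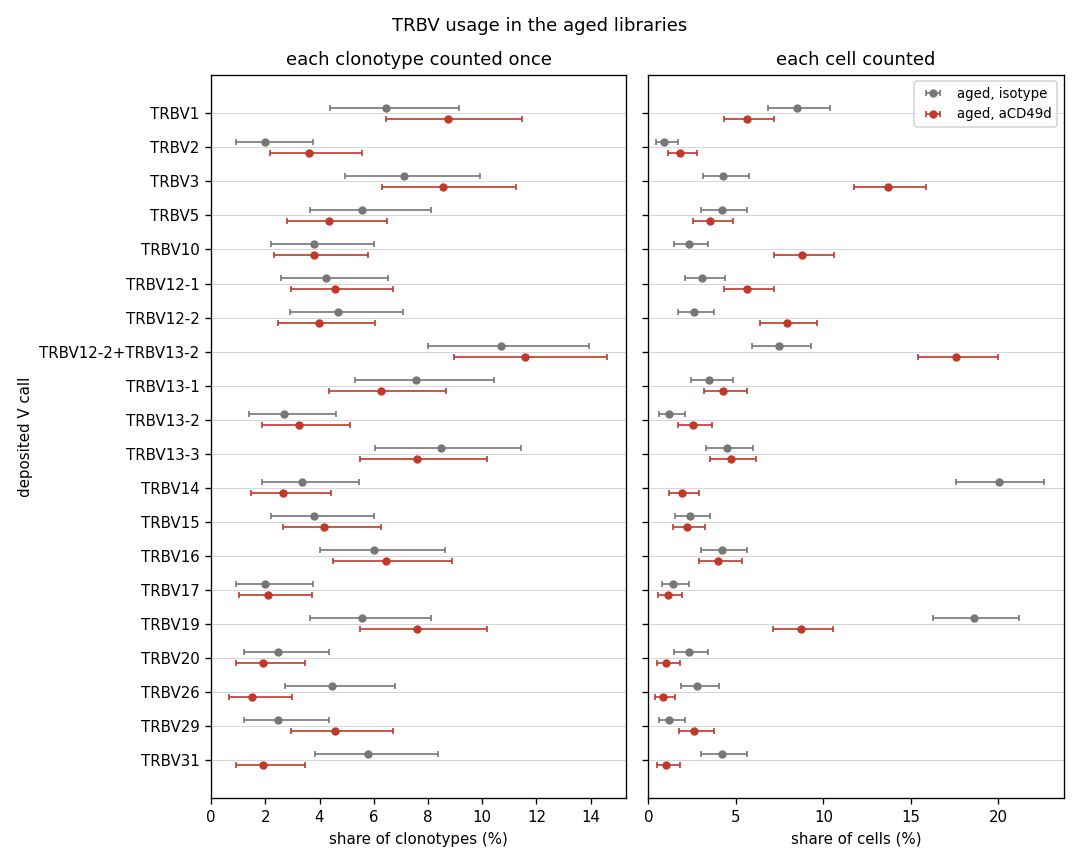
Share of clonotypes (left) and of cells (right) that used each of the 20 compared TRBV calls, in percent, for ATBI_Isotype (grey) and ATBI_aCD49d (red). Points are shares and bars are exact 95% intervals for counting error, and the libraries lie close together by clonotype, while by cell TRBV14 and TRBV19 stand out in ATBI_Isotype and TRBV12-2+TRBV13-2 and TRBV3 in ATBI_aCD49d.

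Counted by cell, 14 of the 20 calls (70.0%) passed 1.5 fold, 6 of them higher in ATBI_Isotype and 8 in ATBI_aCD49d, and the Morisita index was 0.62, against 0.91 in the young pair. Clonotypes of 10 or more cells held 42.3% of the cells of ATBI_Isotype and 38.8% of ATBI_aCD49d. In YTBI_Isotype and YTBI_aCD49d they held 0% and 7.45%. The part of clone size in this and the later contrasts by cell with the young pair was not tested. TRBV14 (Vβ13; chromosome 6, 41135145 to 41135616) was used by 201 cells (20.0%) of ATBI_Isotype and 21 (1.91%) of ATBI_aCD49d, a difference of 18.1 points (15.5 to 20.8), although it was found in 15 and 14 clonotypes. Clones 2 and 3 of ATBI_Isotype held most of these cells. The joint call TRBV12-2+TRBV13-2 was used by 75 cells (7.47%) against 194 (17.6%), 101 of them from the largest clone of ATBI_aCD49d, and its share there was 9.29% when that clone was left out. TRBV19 (Vβ6) was used by 187 (18.6%) against 96 cells (8.71%), and without the largest TRBV19 clone of each library the shares were 9.02% and 4.73%. The 9.02% still held the clone in rank 4 of ATBI_Isotype, with 51 cells. For each of these 3 calls the interval of the difference by clonotype included 0. Intervals by cell, which take the cells of a clone as independent draws, were 7.29 to 12.97 points higher under aCD49d Ab for the joint call. For TRBV19 the interval by cell was 6.93 to 12.9 points lower under aCD49d Ab.

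Among the beta J segments, which form the end of the CDR3, some differed in their share of clonotypes as well as of cells. Of 12 TRBJ segments 4 passed 1.5 fold (33.3%), and in all 4 the interval of the difference lay apart from 0. TRBJ1-4 (chromosome 6, 41534811 to 41534861) was found in 55 clonotypes (12.2%, 9.36 to 15.6) of ATBI_Isotype and 37 (7.02%, 4.99 to 9.55) of ATBI_aCD49d, a difference of 5.23 points (1.39 to 9.18). Under aCD49d Ab 3 segments were higher. TRBJ1-1 (chromosome 6, 41533864 to 41533911) was found in 42 (9.35%) against 80 clonotypes (15.2%), 5.83 points higher under aCD49d Ab (1.56 to 10.0). TRBJ2-5 (41543453 to 41543501) was found in 31 (6.90%) against 59 (11.2%), 4.29 points higher (0.530 to 7.997). TRBJ2-4 (41543362 to 41543410) was found in 28 (6.24%) against 55 (10.4%), 4.20 points higher (0.572 to 7.78). None of the 4 had a like difference in the young pair, where TRBJ1-4 was at 6.36% and 7.51%, TRBJ1-1 at 6.82% and 7.73%, TRBJ2-5 at 11.8% and 13.02%, and TRBJ2-4 at 11.4% and 10.4%. The difference of these differences was not tested. Without clonotypes to which Cell Ranger gave invariant NKT or MAIT evidence, the TRBJ1-4 difference was 1.61 points (-3.54 to 6.83), and the intervals for TRBJ1-1 (3.77 points higher under aCD49d Ab) and TRBJ2-5 (3.50 points higher) included 0 too. Over single-cell clonotypes the differences were 3.95 points for TRBJ1-4, with TRBJ2-5 at 4.10 and TRBJ2-4 at 2.93 points higher under aCD49d Ab, and these 3 intervals included 0. TRBJ1-3, with 28 against 22 clonotypes, lay just inside 1.5 fold at a ratio of 1.49. TRBJ2-7 was the most used segment in both libraries, with 93 (20.7%) and 90 clonotypes (17.1%). TRBJ2-1 was found in 51 (11.4%) and 48 (9.11%).

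**Figure D2:**
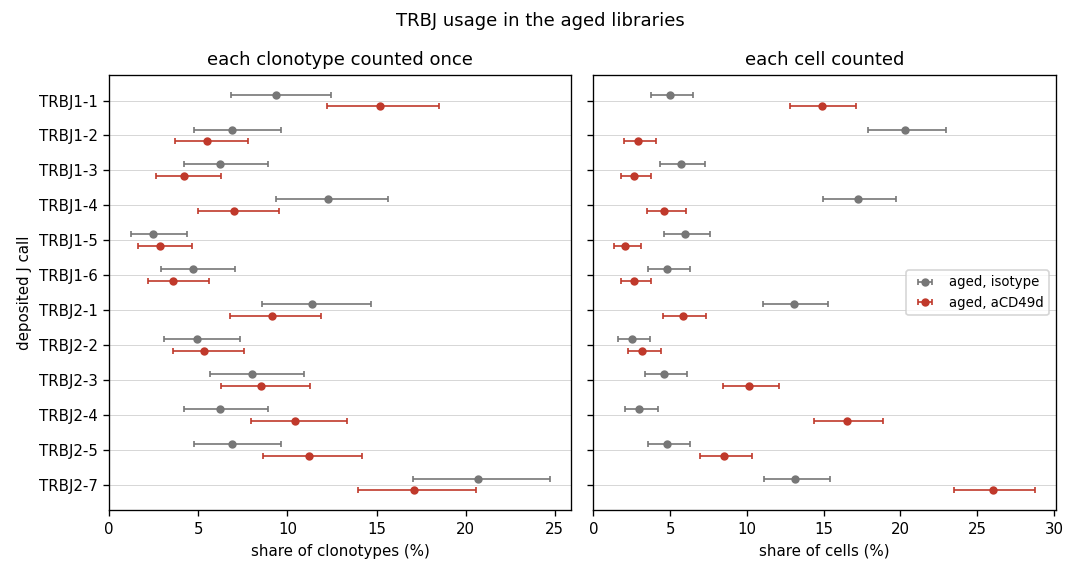
Share of clonotypes (left) and of cells (right) that used each of the 12 TRBJ segments, in percent, for ATBI_Isotype (grey) and ATBI_aCD49d (red), with exact 95% intervals for counting error. By clonotype TRBJ1-4 is higher in ATBI_Isotype and TRBJ1-1, TRBJ2-4 and TRBJ2-5 in ATBI_aCD49d, and by cell TRBJ1-2 and TRBJ1-4 stand out in ATBI_Isotype and TRBJ2-4 and TRBJ2-7 in ATBI_aCD49d.

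By cell, 11 of the 12 TRBJ segments (91.7%) passed 1.5 fold, 6 of them higher in ATBI_Isotype. TRBJ1-2 was used by 204 cells (20.3%) against 32 (2.90%), with 31 and 29 clonotypes. TRBJ2-4 was used by 30 (2.99%) against 182 cells (16.5%), and TRBJ2-7 by 132 (13.1%) against 287 (26.0%). Without the largest clone that used it in each library, TRBJ1-2 was at 11.6% and 2.73%, TRBJ2-4 at 2.79% and 8.09%, and TRBJ2-7 at 12.4% and 20.5% of the cells. Further large clones stayed in these shares. The 11.6% still held the 73 cells of clone 3 of ATBI_Isotype, whose beta CDR3 differs by 1 base from that of the removed clone 2. The 20.5% still held clone 3 and rank 6 of ATBI_aCD49d, with 69 and 20 cells and the same beta CDR3. The beta locus holds its J segments in 2 clusters, each in front of its own D and constant segment. The TRBJ1 cluster took 41.9% of the clonotypes of ATBI_Isotype and 38.3% of ATBI_aCD49d (difference 3.54 points, -2.76 to 9.84), and 59.0% against 29.8% of the cells (29.2 points, 25.01 to 33.3). Among clonotypes of a single cell the TRBJ1 shares were 40.2% and 39.0%, and among clonotypes of 2 or more cells they were 48.8% (42 of 86) and 34.6% (28 of 81), with an interval of the difference of -1.52 to 29.3 points. The TRBJ2 cluster held the rest, 58.1% and 61.7% of the clonotypes and 41.0% and 70.2% of the cells. Both young libraries used TRBJ1 less, in 30.5% and 32.0% of the clonotypes.

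Alpha V segments were counted by family, since the duplicated copies of a TRAV family (marked D and N) are near identical and could be called as one another. By clonotype the families were used alike, with a Morisita index of 1.01. TRAV12 (46 against 51 clonotypes), TRAV7 (37 against 48), TRAV14 (35 against 45) and TRAV6 (34 against 45) were the most frequent. Of 13 families 2 (15.4%) passed 1.5 fold, TRAV16 with 14 (4.08%) against 29 clonotypes (6.22%) and TRAV5 with 9 (2.62%) against 20 (4.29%), and both intervals of the difference included 0. TRAV10 lay just inside at a ratio of 1.49. By cell 8 of the 13 families (61.5%) passed 1.5 fold, and all 13 families differed in the same direction by clonotype and by cell. In the other classes 12 of 20 TRBV calls, 10 of 12 TRBJ segments and 18 of 23 TRAJ segments did so. TRAV9 was used by 51 cells (7.37%) of ATBI_Isotype and 212 (22.6%) of ATBI_aCD49d. TRAV12 was used by 177 (25.6%) against 102 (10.9%) and TRAV7 by 120 (17.3%) against 63 (6.72%). Without the largest clone that used it in each library, TRAV9 was at 5.60% and 16.2%, TRAV12 at 17.6% and 6.91%, and TRAV7 at 7.89% and 6.12% of the cells. The 16.2% still held clone 2 of ATBI_aCD49d, with TRAV9-4 in 68 cells. The 17.6% still held clone 3 of ATBI_Isotype, with the alpha CDR3 of the removed clone 2 in 44 cells.

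The single segment names separated the libraries further, within the limit that the copies may be confused. TRAV12-1 (chromosome 14, 53538191 to 53538738), the V segment of the alpha chain of clones 2 and 3, was found in 7 clonotypes and 129 cells (18.6%) of ATBI_Isotype. It was found in 0 of 466 clonotypes and 0 of 937 cells of ATBI_aCD49d, which allows shares of up to 0.644% and 0.320%. TRAV9-4 was used by 5 cells (0.723%) of ATBI_Isotype and 161 cells (17.2%) of ATBI_aCD49d, with 4 and 10 clonotypes. By cell the Morisita index was 0.25 for single TRAV names and 0.72 for families, against 0.97 and 0.99 in the young pair.

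TRAJ usage was spread over many segments with low counts. By clonotype 11 of 23 TRAJ segments (47.8%) passed 1.5 fold, 5 higher in ATBI_Isotype and 6 in ATBI_aCD49d, and in 2 the interval of the difference lay apart from 0. TRAJ17 (chromosome 14, 54201775 to 54201837) was found in 10 (2.92%) against 2 clonotypes (0.429%), a difference of 2.49 points (0.612 to 4.90). TRAJ42 (chromosome 14, 54175773 to 54175836) was found in 2 (0.583%) against 12 (2.58%), 1.99 points higher under aCD49d Ab (0.0418 to 3.94). Without clonotypes with invariant NKT or MAIT evidence the TRAJ17 difference was 0.969 points (-1.02 to 3.52) and that of TRAJ42 was 3.63 points higher under aCD49d Ab. The interval for TRAJ42 included 0 over clonotypes with both chains and without possible doublets. TRAJ21 (17 against 15 clonotypes), TRAJ12 (15 against 12), TRAJ9 (12 against 10) and TRAJ57 (10 against 8) had the larger share in ATBI_Isotype. The direction turned for TRAJ9 over single-cell clonotypes (-0.044 points, isotype minus aCD49d Ab) and for TRAJ57 without clonotypes with invariant NKT or MAIT evidence (-0.44 points). TRAJ34 (7 against 21), TRAJ32 (7 against 18), TRAJ40 (6 against 14), TRAJ33 (5 against 11) and TRAJ6 (3 against 10) had the larger share in ATBI_aCD49d. The most used were TRAJ22, with 31 clonotypes in each library (9.04% and 6.65%), and TRAJ18, with 26 (7.58%) and 45 (9.66%). TRAJ31 was found in 17 and 16. By cell, 14 of 23 (60.9%) passed 1.5 fold. TRAJ22 was used by 159 cells (23.0%) against 37 (3.95%), TRAJ9 by 87 (12.6%) against 11 (1.17%), and TRAJ34 by 8 (1.16%) against 98 (10.5%). Without the largest clone that used each segment in each library, TRAJ22 was at 14.7% and 3.54%, TRAJ9 at 2.58% and 0.963%, and TRAJ34 at 0.870% and 3.45%. The 14.7% still held clone 3 of ATBI_Isotype, with the alpha CDR3 of the removed clone 2 in 44 cells.

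**Figure D3:**
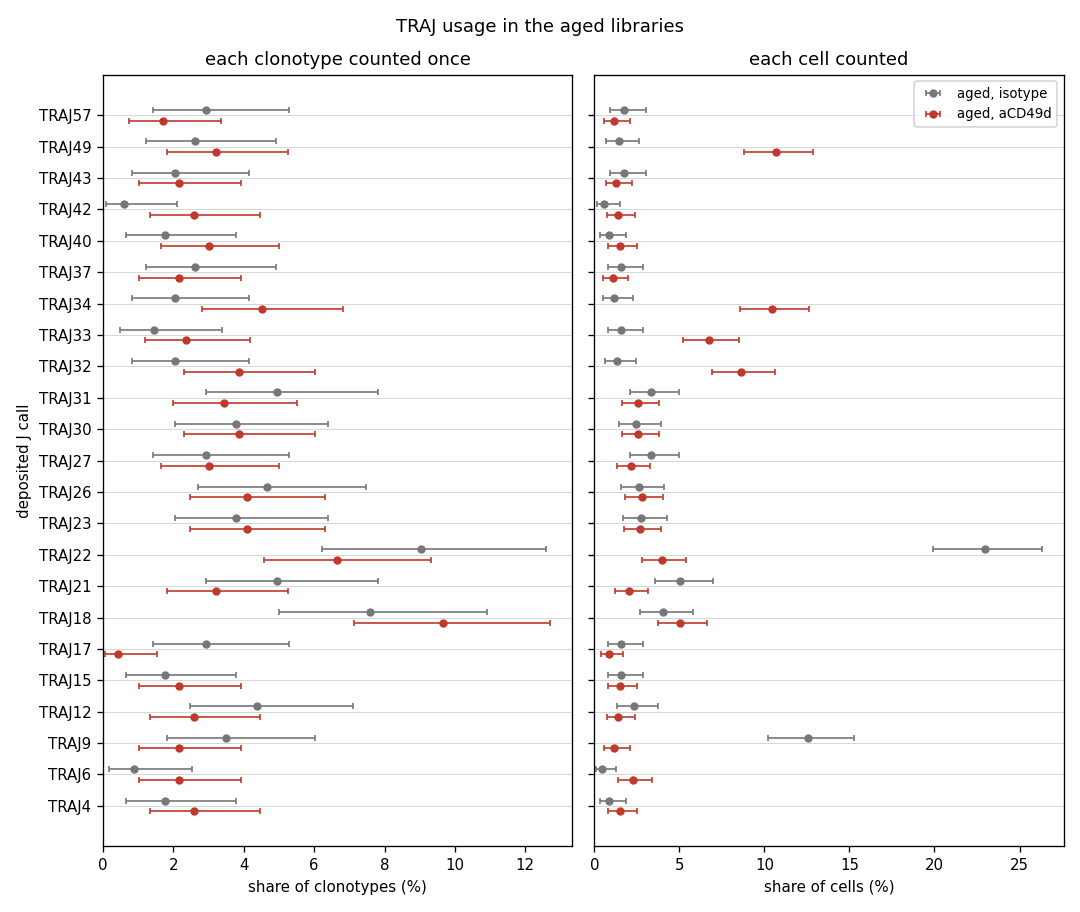
Share of clonotypes (left) and of cells (right) that used each of the 23 compared TRAJ segments, in percent, ordered by TRAJ number with the V side of the locus at the top. Grey marks ATBI_Isotype, red ATBI_aCD49d and bars exact 95% intervals, and by cell TRAJ22 and TRAJ9 stand out in ATBI_Isotype and TRAJ49, TRAJ34, TRAJ32 and TRAJ33 in ATBI_aCD49d.

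The TRAJ number falls along the locus from the V side to the constant gene, and successive alpha rearrangements in a developing T cell move toward lower numbers. Segments numbered above 30, the V side, took 38.8% of the clonotypes of ATBI_Isotype and 43.3% of ATBI_aCD49d, with an interval of the difference of -11.5 to 2.48 points. The C-side segments took the other 61.2% and 56.7%. By cell the V side took 30.9% against 55.4%. Among single-cell clonotypes the V-side shares were 40.3% and 41.1%, and among clonotypes of 2 or more cells 33.8% (27 of 80) and 54.4% (43 of 79), with an interval of -35.9 to -4.39 points. Without the invariant TRAV11 with TRAJ18 rearrangement the median TRAJ number was 26 and 30 by clonotype and 22 and 32 by cell. In the young pair the median by clonotype was 30 in both.

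V-J pairing was compared over pairs of segments within a chain. The beta chains used 181 pairs in ATBI_Isotype and 187 in ATBI_aCD49d, of which 146 were in both (80.7% and 78.1% of the pairs). These shared pairs held 86.4% and 83.7% of the clonotypes. The beta pairs with most clonotypes in ATBI_Isotype were TRBV13-3 with TRBJ2-7 (11 clonotypes against 2) and the joint call with TRBJ2-7 (8 against 7). Each of 4 further pairs had 7 clonotypes, among them TRBV13-3 with TRBJ1-4 (7 against 1). In ATBI_aCD49d they were TRBV3 with TRBJ2-7 (11 against 5) and TRBV16 with TRBJ2-7 (10 against 7), and then 3 pairs with 9 clonotypes each. Of these, TRBV1 with TRBJ1-1 and TRBV16 with TRBJ2-4 each had 2 clonotypes in ATBI_Isotype, and TRBV3 with TRBJ2-4 had 0 of 449 there, which allows up to 0.668%. Clonotypes with the same beta CDR3 bases were counted apart, such as ranks 3 and 6 of ATBI_aCD49d, which both joined TRBV3 with TRBJ2-7. Such couples of beta clonotypes numbered 10 in ATBI_aCD49d and 4 in ATBI_Isotype. TRBV13-3 was at like shares in both libraries and paired with TRBJ2-7 in 2.45% against 0.380% of the clonotypes, a difference of 2.07 points (0.502 to 3.99). This pair was named because it had most clonotypes in ATBI_Isotype, and the interval does not allow for that choice. Whether pairing differed was not tested. The Morisita index over beta pairs was 0.88 by clonotype, against 0.90 in the young pair, and 0.10 by cell, against 0.63.

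By cell, the beta pairs with the largest differences belonged to the largest clones. TRBV14 with TRBJ1-2 was used by 172 cells (17.1%) of ATBI_Isotype, all in clones 2 and 3, and by 0 of 1102 cells of ATBI_aCD49d, which allows up to 0.272%. TRBV19 with TRBJ1-4 was used by 107 cells (10.7%) against 1 (0.0907%). TRBV3 with TRBJ2-7 was used by 5 (0.498%) against 112 cells (10.2%).

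The alpha chains used 227 and 266 pairs of TRAV family and TRAJ, with 121 in both (53.3% and 45.5% of the pairs). TRAV11 with TRAJ18 was the most frequent alpha pair in both libraries, with 20 clonotypes (5.83%, 3.60 to 8.86) in ATBI_Isotype and 38 (8.15%, 5.84 to 11.0) in ATBI_aCD49d, and 9.33% in each young library. The difference was -2.32 points (-5.96 to 1.49), isotype minus aCD49d Ab. The next pairs were TRAV12 with TRAJ22 (9 against 4) and TRAV12 with TRAJ26 (7 against 4) in ATBI_Isotype. In ATBI_aCD49d they were TRAV14 with TRAJ22 (3 against 7) and TRAV12 or TRAV9 with TRAJ34 (1 against 6 for each). TRAV1 with TRAJ33, the rearrangement of mucosal-associated invariant T (MAIT) cells, was found in 1 of 343 clonotypes of ATBI_Isotype and 0 of 466 of ATBI_aCD49d. By cell TRAV12 with TRAJ22 was used by 130 (18.8%) against 6 cells (0.640%), TRAV7 with TRAJ9 by 73 (10.5%) against 6 (0.640%), and TRAV16 with TRAJ13 by 0 of 692 against 81 cells (8.64%). The Morisita index over alpha pairs was 0.97 by clonotype and 0.11 by cell, against 0.80 by cell in the young pair.

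CDR3 length was counted as the number of amino acids in the deposited sequence, from the conserved cysteine to the last residue before framework 4, both anchors included. By clonotype the beta CDR3 was 13.97 ± 1.42 amino acids long (SD over 449 clonotypes) in ATBI_Isotype and 14.03 ± 1.38 (527 clonotypes) in ATBI_aCD49d. Young clonotypes had means of 14.04 and 13.98. By cell the means were 13.69 ± 1.47 and 14.47 ± 1.36. A length of 12 was found in 10.7% of the clonotypes but 27.2% of the cells of ATBI_Isotype, against 11.2% and 9.53% in ATBI_aCD49d. Clones 2 and 3 of ATBI_Isotype had this length. A length of 16 was found in 8.73% of the clonotypes but 24.8% of the cells of ATBI_aCD49d, against 9.35% and 5.28% in ATBI_Isotype, and clones 1 and 3 of ATBI_aCD49d had it.

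**Figure D4:**
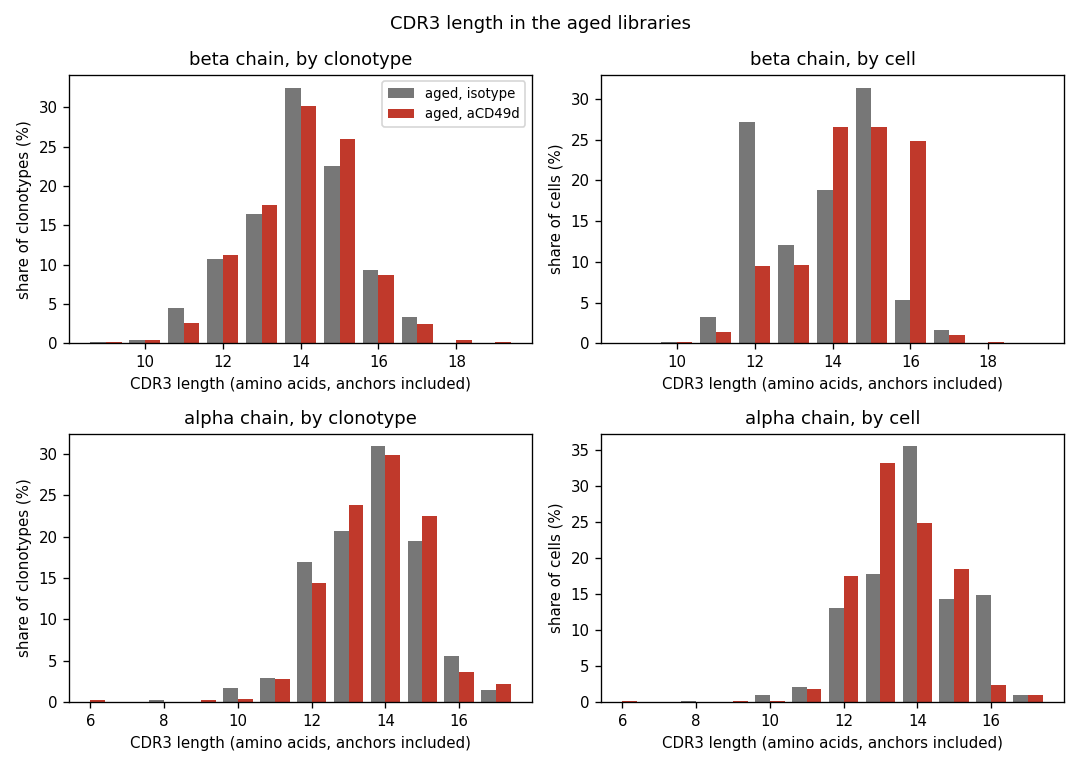
Share of clonotypes (left) and of cells (right) at each CDR3 length, in percent, for the beta chain (top) and the alpha chain (bottom), in ATBI_Isotype (grey) and ATBI_aCD49d (red). By clonotype the bars of the libraries are of like height with a peak at 14 amino acids, and by cell ATBI_Isotype has peaks at 12 and 15 in the beta chain, while ATBI_aCD49d has 24.8% of its cells at 16.

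The alpha CDR3 was 13.63 ± 1.40 amino acids long by clonotype in ATBI_Isotype (343 clonotypes) and 13.71 ± 1.34 in ATBI_aCD49d (466 clonotypes). By cell the order was the opposite, with 13.92 ± 1.39 against 13.51 ± 1.21. The CDR3 bases that matched neither germline segment numbered 9.88 ± 3.92 in the beta chains of ATBI_Isotype and 10.2 ± 3.72 in those of ATBI_aCD49d, among the 96.2% of clonotypes matched in each library. In the alpha chains they numbered 2.59 ± 2.19 and 2.49 ± 2.04, and 19.8% and 20.4% of the alpha CDR3s had no such base. These bases include the D segment in the beta chain.

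Net charge was taken as the lysines and arginines minus the aspartates and glutamates of the CDR3. Most beta CDR3s were negative. By clonotype the mean was -0.66 ± 1.05 in ATBI_Isotype and -0.78 ± 0.99 in ATBI_aCD49d. A positive beta CDR3 was found in 64 of 449 clonotypes (14.3%, 11.2 to 17.8) of ATBI_Isotype and 45 of 527 (8.54%, 6.30 to 11.3) of ATBI_aCD49d, a difference of 5.71 points (1.59 to 9.94). The young libraries had 10.0% and 8.83%, so the value of ATBI_Isotype was the highest of the 4 and that of ATBI_aCD49d was close to the young ones. Among single-cell clonotypes the shares were 14.3% and 9.19%, a difference of 5.13 points (0.522 to 9.88). Weighting the TRBJ segments equally in both libraries, by their pooled use, left a difference of 4.68 points, and the positive share was higher in ATBI_Isotype in 9 of the 12 TRBJ segments.

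The residue that differed was arginine. An arginine was found in the beta CDR3 of 215 clonotypes (47.9%) of ATBI_Isotype and 207 (39.3%) of ATBI_aCD49d, a difference of 8.61 points (2.22 to 14.9), against 42.3% and 40.8% in the young libraries. Lysine was found in 4.68% and 5.50%, aspartate in 48.6% and 49.7%, and glutamate in 64.8% and 65.7%, and each of these intervals of the difference included 0. The arginine shares were 55.8% (48 of 86) and 33.3% (27 of 81) among clonotypes of 2 or more cells, a difference of 22.5 points (6.59 to 37.2). Among single-cell clonotypes they were 46.0% and 40.4%, with an interval of -1.38 to 12.6 points. The germline bases of TRBJ1-4 encode an arginine, as in the beta chain of clone 1 of ATBI_Isotype. TRBJ1-4 was itself found in 12.2% of the clonotypes of ATBI_Isotype and 7.02% of those of ATBI_aCD49d. The arginine shares were not weighted by TRBJ segment, so the part of TRBJ usage in the arginine difference was not tested.

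By cell the beta charge separated the libraries more, at -0.31 ± 1.01 and -1.03 ± 0.94. A negative beta CDR3 was found in 40.4% of the cells of ATBI_Isotype and 73.2% of those of ATBI_aCD49d, and a positive one in 20.0% and 4.99%. The 3 largest clones of ATBI_Isotype had charges of 1, 0 and 0, and those of ATBI_aCD49d had -1, -2 and -2. Without clonotypes of 10 or more cells, 13.9% and 8.22% of the cells had a positive beta CDR3, a difference of 5.69 points (2.10 to 9.36) and close to that by clonotype.

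**Figure D5:**
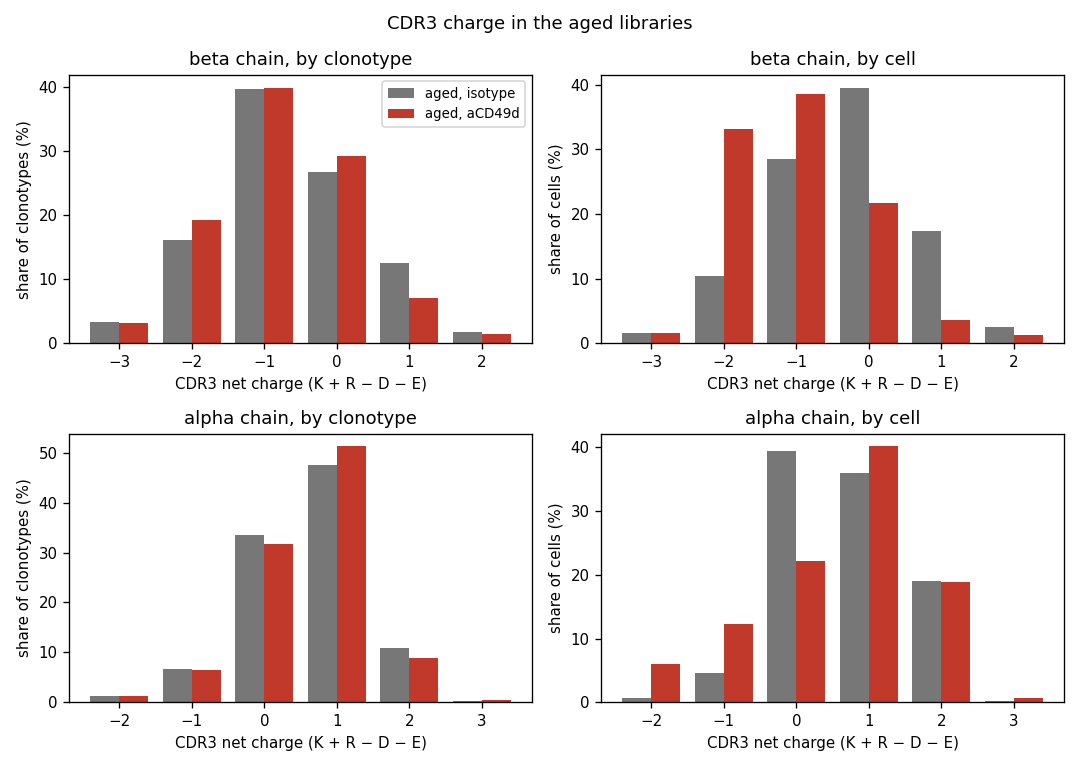
Share of clonotypes (left) and of cells (right) at each CDR3 net charge, in percent, for the beta chain (top) and the alpha chain (bottom), in ATBI_Isotype (grey) and ATBI_aCD49d (red). By clonotype a beta charge of 1 was found in 12.5% against 7.02%, and by cell a beta charge of 0 was the most frequent in ATBI_Isotype (39.5%) and a charge of -1 in ATBI_aCD49d (38.5%).

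Alpha CDR3s carried a positive charge on average. By clonotype the mean was 0.61 ± 0.82 in ATBI_Isotype and 0.61 ± 0.80 in ATBI_aCD49d. Positive alpha CDR3s made up 58.6% and 60.5% of the clonotypes, with an interval of the difference of -8.93 to 5.08 points, and the young libraries had 67.9% and 64.8%. By cell the means were 0.68 ± 0.86 and 0.56 ± 1.13, and a negative alpha CDR3 was found in 5.35% of the cells of ATBI_Isotype and 18.2% of those of ATBI_aCD49d. Clone 1 of ATBI_aCD49d, with an alpha charge of -1 in 72 cells, and the clone in rank 5, with -2 in 44 cells, held most of these cells.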

How the data were processed

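Single-cell TCR libraries of the 4 groups were used. Gene expression libraries of these cells, 4 in number, were not analysed here. The authors made 10x Genomics 5' v2 immune profiling libraries and aligned the TCR reads to mm10. The submitters' processing notes name Cell Ranger 7.2.0 and list mm9 beside mm10. The deposited contig tables hold raw counts of reads and UMIs per assembled chain, and other columns such as the contig length in bases. The deposited clonotype tables give each clonotype's count of cells and its fraction of the library. Only productive, full-length chains of called cells are listed.

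For each clonotype, the chain found in most of its cells was taken, and for each cell the chain with most UMIs. Doublets were not removed. One beta clonotype is 0.223% of ATBI_Isotype and 0.190% of ATBI_aCD49d. Intervals are Clopper-Pearson for a share and Newcombe, from the Clopper-Pearson limits, for a difference. A count of 0 is given with the share that 3 counts would be. With 1 library per group no test was run. For TRBV, TRBJ, TRAV families and TRAJ, the text names the 3 segments with most clonotypes in each aged library, every segment past 1.5 fold with at least 10 clonotypes in either, and by cell the 3 with the largest difference. For V-J pairs it names the 3 with most clonotypes in each library (ties included) and the 3 with the largest difference by cell, and for clones the 3 with most cells. The lists TRBJ1, TRBV13, TRBV12, V-side TRAJ, TRAV11 with TRAJ18 and TRAV1 with TRAJ33 were added, and all members and lists were chosen with earlier results of these data known. Other segments, pairs and clones, and arginine, were named after their values were seen. Germline ends were read from GRCm38, the assembly of mm10, with GENCODE vM21 positions, by placing the 15 bases before and the 12 bases after each CDR3 on them, and 162 of 163 segment names were matched. Alternatives changed the definition of a clonotype, the chain taken, the UMI minimum, the naming of copies and joint calls, and the charge of histidine (uncharged here), or left out possible doublets, single-chain clonotypes, clonotypes with invariant NKT or MAIT evidence and large clones. The intervals and the Morisita index were tested on simulated libraries of independent draws. These held no clones, so the values by cell were not tested in this way. Python 3.11.15, pandas 2.3.3, numpy 2.4.6, scipy 1.17.1 and matplotlib 3.10.9 were used.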

Additional observations from a re-analysis of the deposited data

Results flagged for a closer look

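The 20 TRBV calls, 12 TRBJ segments, 13 TRAV families and 23 TRAJ segments compared were screened by clonotype and by cell. For 3 of them the difference between isotype and aCD49d Ab had opposite directions in the aged and the young pair. Their counting intervals lay apart from 0 in both pairs, by clonotype for TRBV31 alone and by cell for all 3. These differences between the pairs were not tested, and each rests on 1 library per group. The intervals by cell take the cells of a clone as independent draws and are too narrow. The share of clonotypes with TRBV31, isotype minus aCD49d Ab, differed by 3.89 points between the aged libraries and by -4.80 points between the young ones, and by cell these values were 3.19 and -9.27. For the joint call TRBV12-2+TRBV13-2 aged mice had a difference by cell of -10.1 points and young mice one of 6.51. For TRAJ34 it was -9.30 and 3.06 points by cell, and 68 of the 98 TRAJ34 cells of ATBI_aCD49d belonged to 1 clone.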

How the results depend on the processing

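No paired analysis was possible because the labels number no replicates and a group holds a single library. Of 442 values recomputed over 55 results and 13 settings, 401 stayed within the 95% interval of the value reported or, for a count of calls, within 1.5 times it and, for a Morisita index, within 0.1 of it, 5 of them with the opposite sign (the alpha charge difference by clonotype, reported at -0.0023 and up to 0.021). A further 36 moved more and 5 reversed, and the cause was not tested beyond what each setting leaves out. For mean CDR3 length and charge the interval used here came from the standard errors of the means, was not exact and is not printed. By cell it took the cells of a clone as independent draws. Leaving out clonotypes of 10 or more cells, chosen (like counting near-identical clonotypes once) after seeing the data, moved values by cell as follows. The calls past 1.5 fold by cell fell to 5 for TRBV (from 14), 5 for TRBJ (from 11) and 4 for TRAV families (from 8). Those for TRAJ (14) stayed within 1.5 times in this setting. The TRBJ1 difference fell to 3.72 points (from 29.2), the beta length difference to -0.14 amino acids (from -0.77) and the beta charge difference to 0.12 (from 0.72). The alpha charge difference became 0.022 (from 0.13), the alpha length difference reversed to -0.14 amino acids (from 0.41), and the Morisita index over V-J pairs by cell rose to 0.64 for beta (from 0.10) and 0.78 for alpha (from 0.11). Leaving out the largest clonotype gave 21.4 points for TRBJ1, 0.57 for beta charge and 0.13 amino acids for alpha length by cell, and reversed alpha charge to -0.15. Without clonotypes with invariant NKT or MAIT evidence, which are 162 and 224 clonotypes and so leave fewer segments to compare, the TRBJ1 difference by cell was 37.3 points, beta length -1.22, alpha length 0.19 and alpha charge reversed to -0.27. The share difference of TRAJ57 by clonotype reversed to -0.44 points there, and that of TRAJ9 to -0.044 points over single-cell clonotypes, while TRBV29 had no clonotype left and gave no value. The difference for TRBJ1-4 by clonotype ranged from 1.61 to 8.07 points and that for TRAJ17 from 0.969 to 3.34 points. The TRAJ calls without these clonotypes were 4 by clonotype (from 11) and 8 by cell (from 14). With histidine counted as positive the beta charge difference by cell was 0.82. The TRAJ calls by clonotype were 5 over single-cell clonotypes and 7 over clonotypes with both chains. The TRAV family calls (2) became 1 over single-cell clonotypes, 1 with the same V and CDR3 bases counted once, 1 without possible doublets and 6 by single TRAV names. By clonotype, calls ranged from 3 to 6 for TRBV and from 4 to 5 for TRBJ, the TRBJ1 difference from 1.21 to 6.21 points, and the difference in positive beta CDR3s from 5.04 to 8.21 points. At this depth a segment not found in ATBI_Isotype may still hold up to 0.668% of the beta or 0.875% of the alpha clonotypes.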
